A study of Homo sapiens with 12 samples.

Results

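DNA topoisomerases and the enzymes that free them from DNA are the 8 genes described here, in melanoma cells that received a topoisomerase poison. They are the type IB enzymes TOP1 and TOP1MT, the type IIA enzymes TOP2A and TOP2B, the type IA enzymes TOP3A and TOP3B, and the tyrosyl-DNA phosphodiesterases TDP1 and TDP2. Members were picked out of the count table by gene symbol, in a list drawn up with earlier results of these data known, and each symbol matched 1 of the 58307 named genes of the count table. The study treated 2 established melanoma lines of human origin, A375 and SK-MEL-28, with etoposide or with etoposide + rapamycin, the latter an inhibitor of mTOR. The 4 groups held 3 polyA-selected RNA libraries each, 12 in all, with 28190672 to 32499659 counts per library. Every library came from cells with etoposide, and no untreated cells were analysed here, so each value below describes the addition of rapamycin, or the cell line, on top of etoposide. The dose and duration for the sequenced cells are not given in the sources used here. The study describes the libraries of a group as biological replicates, and p-values measure the spread between them.

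Topoisomerases relieve the twisting and tangling of DNA by cutting it, letting strands pass, and sealing the cut, and during the cut a tyrosine of the enzyme is bound to the DNA end. Etoposide holds TOP2A and TOP2B in that state, so that the enzyme stays on the DNA as a protein adduct at a broken end. TDP2 cuts the bond between a type II enzyme and the 5′ end, TDP1 cuts the bond between a type IB enzyme and the 3′ end, and proteases and nucleases remove or trim the protein before end joining seals the break. TOP2A is made mainly by dividing cells and rises toward mitosis, whereas TOP2B is made in dividing and resting cells alike.

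The promoters of TOP2A, TOP2B and TOP1 are shown because TOP2A and TOP1 were called with rapamycin and TOP2B, the close relative of TOP2A, was not. RefSeq promoter sequences (GRCh38.p14) were matched by symbol for 7 of the 8 genes, as 8 windows of the 250 bases before a start site. Capitals mark matches, on either strand, to CCAAT, the core of the sequence bound by NF-Y, and to TTTGAA, the core of the cell cycle genes homology region. Each sequence is printed 5′ to 3′ on the strand of the gene, so that a match on the other strand reads ATTGG or TTCAAA. The coordinates are chr17:40417897-40418146 on the minus strand for TOP2A, chr3:25664908-25665157 on the minus strand for TOP2B, and chr20:41028572-41028821 on the plus strand for TOP1.
TOP2A: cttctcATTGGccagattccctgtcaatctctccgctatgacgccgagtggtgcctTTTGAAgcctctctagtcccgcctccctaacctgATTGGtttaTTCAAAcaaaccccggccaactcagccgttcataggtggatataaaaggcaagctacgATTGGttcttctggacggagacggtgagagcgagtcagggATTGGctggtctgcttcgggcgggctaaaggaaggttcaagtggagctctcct
TOP2B: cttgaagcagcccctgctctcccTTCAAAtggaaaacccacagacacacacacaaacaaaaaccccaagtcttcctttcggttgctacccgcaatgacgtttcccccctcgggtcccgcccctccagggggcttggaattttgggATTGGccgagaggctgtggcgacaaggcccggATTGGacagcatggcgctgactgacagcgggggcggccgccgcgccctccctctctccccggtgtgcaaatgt
TOP1: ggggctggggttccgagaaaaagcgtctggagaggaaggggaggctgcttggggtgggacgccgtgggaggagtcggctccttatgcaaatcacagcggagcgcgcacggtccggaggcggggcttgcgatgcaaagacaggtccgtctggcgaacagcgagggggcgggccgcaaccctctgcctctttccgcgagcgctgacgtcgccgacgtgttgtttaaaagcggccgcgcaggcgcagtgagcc

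The TOP2A window held 4 matches to CCAAT, whose first bases lay 244, 160, 93 and 53 bases before the start, and 2 matches to TTTGAA. Of 35116 RefSeq windows of this length, 32.0% held at least 1 CCAAT and 0.874% held at least 4, while 13.3% held at least 1 TTTGAA and 1.72% at least 2. The TOP2B window held 2 CCAAT matches and 1 TTTGAA match, and the TOP1 window held none of either. Among the other windows, which include a second start of TOP2B but not TOP1MT, 0 held CCAAT and only that of TDP1 held TTTGAA. A match is a string of letters and was not tested as a binding site.

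The libraries labelled SK-MEL-28 lay close to those labelled A375. Across 20101 genes the mean levels of the groups with etoposide alone had a Spearman correlation of 0.981 between the labels, which is a description across genes and not across replicates. The median size of the log2 fold change was 0.24 between the labels, beside 0.22 for rapamycin in A375 and 0.18 for rapamycin in SK-MEL-28. More genes differed by over 4-fold between the labels (311, or 1.63% of those tested) than with rapamycin in A375 (35, or 0.186%) or in SK-MEL-28 (62, or 0.328%). The pigment genes PMEL, MLANA, TYR, DCT and TYRP1, which SK-MEL-28 is usually described as expressing, reached at most 2.99 CPM (counts scaled to a common library total) in any of the 12 libraries. Within these low levels, DCT (1.28 to 2.16 against 0.202 to 0.825 CPM) and TYRP1 (1.21 to 1.82 against 0.369 to 0.756 CPM) were higher in every library labelled SK-MEL-28 than in any labelled A375, whereas PMEL, MLANA and TYR overlapped. The lineage genes SOX10 (166 to 579 CPM), S100B (56.8 to 106 CPM) and MITF (12.1 to 29.7 CPM) were present in all of them. Genotype was not tested, and the cell line and its culture cannot be told apart, so below "SK-MEL-28" means the libraries that carry that label.

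Levels of different genes were compared per kilobase of the MANE Select transcript, the reference transcript of each gene. TOP1, the main enzyme relaxing supercoils ahead of polymerases, was the highest of the 8 in every group. Its level was 47.7 ± 0.459 CPM per kilobase (SD, n = 3) in A375 given etoposide and 53.4 ± 3.36 in the same group of SK-MEL-28. TDP1 was the lowest in every group, at 1.94 ± 0.199 and 2.06 ± 0.145 CPM per kilobase in the same groups. Both ends of the order also held with the union of annotated exons as the length. In A375 with etoposide, TOP2B (17.1 ± 0.537) and TOP1MT (16.6 ± 0.414) came next and overlapped, followed by TDP2 (12.1 ± 0.535). TOP3A (8.16 ± 0.510), TOP2A (7.69 ± 0.204) and TOP3B (7.50 ± 0.0578) followed, and each overlapped its neighbour. In SK-MEL-28 with etoposide, TOP2B (17.3 ± 0.986) and TOP1MT (14.8 ± 1.79) overlapped, as did TDP2 (11.5 ± 0.715) and TOP2A (11.3 ± 0.581), and then came TOP3A (8.94 ± 0.545) and TOP3B (7.10 ± 0.419). These middle places depend on the length used: with the union of exons TOP2A stood above TOP2B in all 4 groups.

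**Figure D1:**
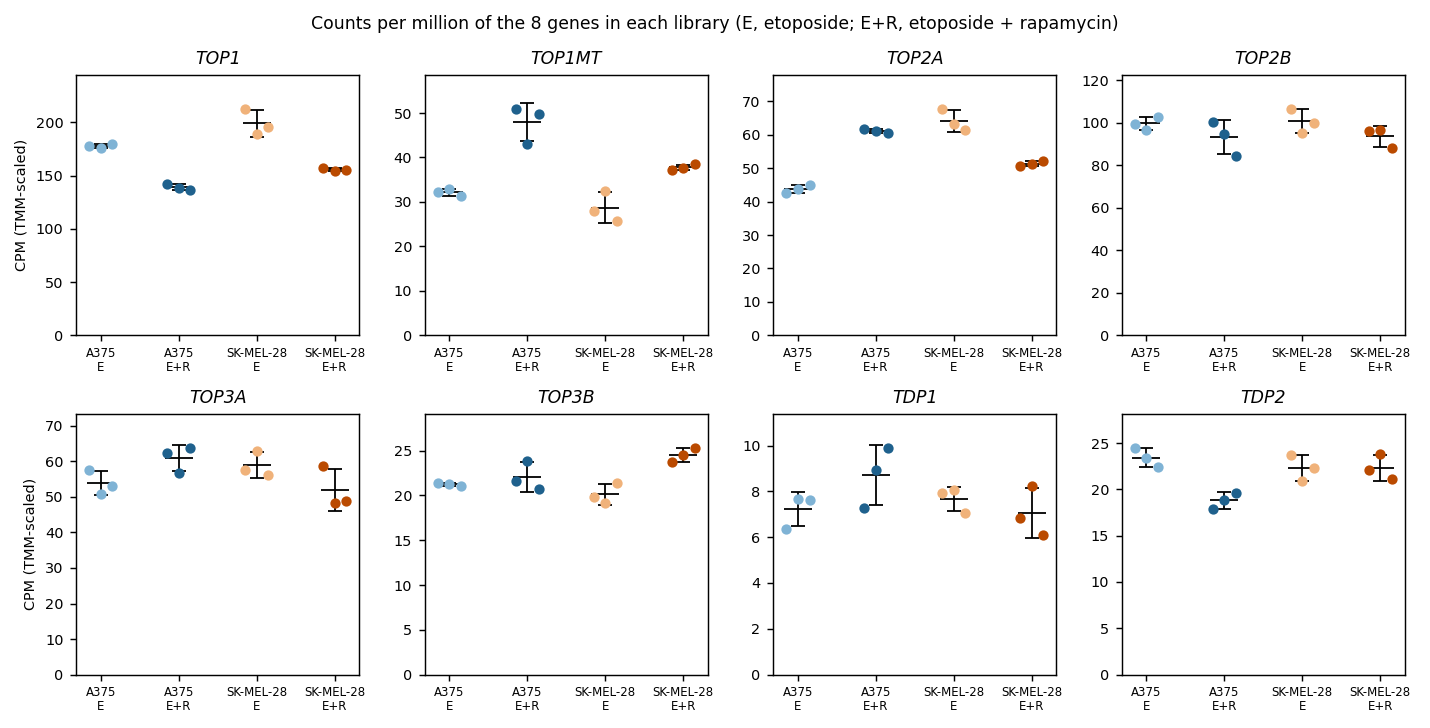
Each panel plots one gene in CPM (TMM-scaled) on a linear axis from 0, with 3 points per group for the libraries and black bars for the mean ± SD, E for etoposide and E+R for etoposide + rapamycin. TOP2A moved up with rapamycin in A375, from 43.8 to 61.2 CPM, and down in SK-MEL-28, from 64.2 to 51.4 CPM, whereas TOP1 was lower with rapamycin in both.

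The comparison of etoposide + rapamycin with etoposide was made in each cell line with edgeR across all genes, and a gene was called at an adjusted p under 0.05. In A375, 5 of the 8 genes were called, with TOP1MT, TOP2A and TOP3A higher and TOP1 and TDP2 lower. Over all 18844 genes tested, 28.1% were called, 14.3% higher and 13.8% lower. The groups did not overlap for 4 of the 8, against 42.6% of all genes. No member passed 1.5-fold as well as the test in edgeR, against 5.89% of all genes, 5 members had an unadjusted p under 0.05, and DESeq2, which called 30% of its genes, called 5, of which 1 (TOP1MT) passed 1.5-fold. The median log2 fold change of the members was 0.12, beside -0.005 over all genes.

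In SK-MEL-28, 4 of the 8 genes were called, with TOP1MT and TOP3B higher and TOP1 and TOP2A lower. Over all 18897 genes tested, 19.0% were called, 8.83% higher and 10.1% lower. The groups did not overlap for 4 of the 8, against 35.9% of all genes. No member passed 1.5-fold as well as the test in edgeR, against 4.99% of all genes, 5 members had an unadjusted p under 0.05, and DESeq2, which called 22% of its genes, called 4, of which 0 passed 1.5-fold. The median log2 fold change of the members was -0.12, beside 0.005 over all genes. Of the 8 genes, 6 were called in at least 1 cell line and 3 in both, TOP1 and TOP1MT the same way and TOP2A in opposite ways, whereas TOP2B and TDP1 were called in neither.

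The difference between these responses was tested as an interaction term in a fit of all 12 libraries, written as the SK-MEL-28 change minus the A375 change. TOP2A was the only member called. With it, 4 of the 8 had an unadjusted p under 0.05, and the members not called are not shown to respond alike. Over all 20101 genes, 5.62% were called, 2.66% higher and 2.97% lower, and 1.62% were called with a difference over 1.5-fold, as was TOP2A. DESeq2, which called 11.6% of its genes for this difference, called TOP3A as well as TOP2A.

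**Figure D2:**
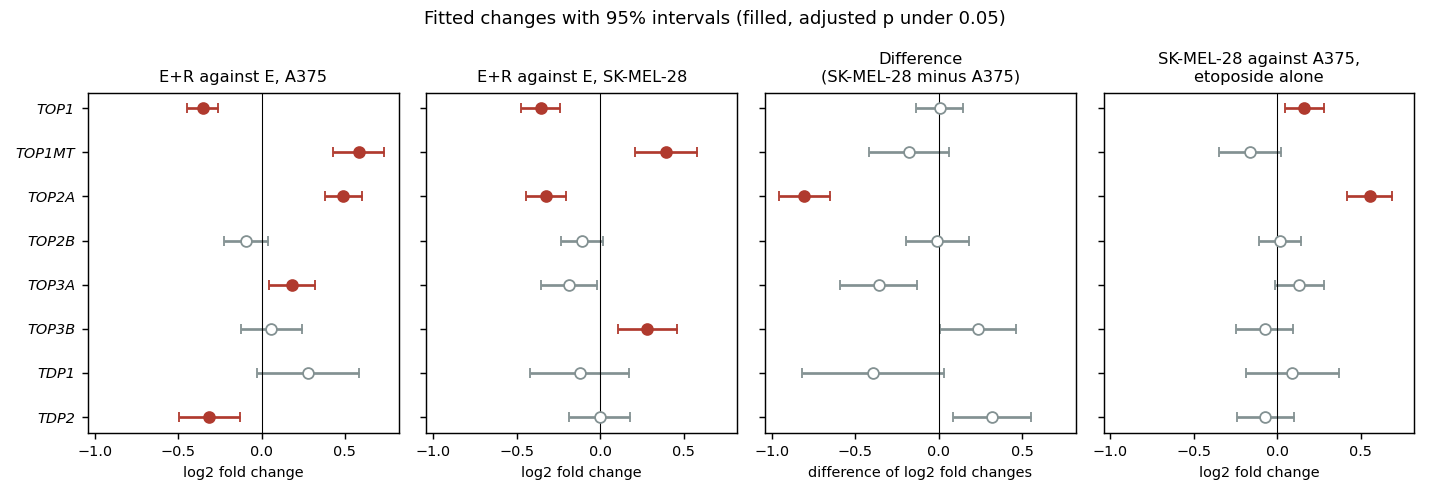
Fitted log2 fold changes of the 8 genes (points) with 95% intervals (bars) in 4 comparisons, filled where the adjusted p was under 0.05; the panel right of centre gives the difference of log2 fold changes, SK-MEL-28 minus A375. TOP1 lay at -0.35 in A375 and -0.36 in SK-MEL-28, and TOP2A had the difference farthest from 0, at -0.80.

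Among the type IB enzymes, TOP1, the nuclear enzyme, fell with rapamycin in both cell lines. In A375 it measured 178, 176 and 179.9 CPM with etoposide and 142.01, 139 and 136 CPM with etoposide + rapamycin. In SK-MEL-28 it measured 213, 189 and 196 CPM with etoposide and 157, 155 and 156 CPM with etoposide + rapamycin. All 3 libraries with rapamycin lay below all 3 without it in each cell line. The log2 fold change was -0.35 (SE 0.0423, adjusted p = 8e-05) in A375 and -0.36 (SE 0.0549, adjusted p = 0.000622) in SK-MEL-28, which is 1.28-fold lower in both. These changes differed by 0.00 on the log2 scale, with a 95% interval of -0.13 to 0.14 (adjusted p = 0.98). In bulk RNA, fewer cells of a type and less RNA per cell cannot be told apart, here and for each gene below.

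TOP1MT, the mitochondrial relative of TOP1, rose with rapamycin in both cell lines. In A375 it measured 32.3, 32.9 and 31.3 CPM with etoposide and 51.0, 43.1 and 49.7 CPM with etoposide + rapamycin. The SK-MEL-28 libraries gave 27.96, 32.5 and 25.7 CPM with etoposide and 37.3, 37.7 and 38.5 CPM with etoposide + rapamycin. The groups did not overlap in either cell line, and the second etoposide + rapamycin library of A375 was the lowest of its 3. The log2 fold change was 0.58 (SE 0.0713, adjusted p = 9.23e-05) in A375, 1.496-fold and so just inside the 1.5-fold limit, and 0.39 (SE 0.0845, adjusted p = 0.00579) in SK-MEL-28. The difference between them was -0.18, with a 95% interval of -0.42 to 0.06 (adjusted p = 0.415). Over the 12 libraries, after the mean of each cell line was subtracted, the log2 CPM of TOP1 and TOP1MT had a Pearson correlation of -0.928. The libraries share their treatments and no p is given for it.

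Among the type IIA enzymes, which are the targets of etoposide, TOP2A changed in opposite directions. In A375 it measured 42.6, 43.8 and 45.0 CPM with etoposide and 61.9, 61.1 and 60.7 CPM with etoposide + rapamycin. In SK-MEL-28 the levels were 67.8, 63.1 and 61.5 CPM with etoposide and 50.6, 51.2 and 52.2 CPM with etoposide + rapamycin. All 3 libraries with rapamycin were higher in A375 and all 3 were lower in SK-MEL-28. TOP2A rose 1.40-fold in A375 (log2 fold change 0.49, SE 0.0509, adjusted p = 2.67e-05) and fell 1.25-fold in SK-MEL-28 (log2 fold change -0.32, SE 0.0546, adjusted p = 0.00123). The difference was -0.80 (SE 0.0719, 95% interval -0.96 to -0.65, adjusted p = 7.89e-06), the 9th smallest p of 20101 genes. Each of these calls held with every library left out in turn, with differences from -0.83 to -0.76.

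TOP2B, which works alongside transcription in cells that divide and cells that do not, was not called in either cell line. In A375 it measured 99.5, 96.6 and 103 CPM with etoposide and 100.0, 94.8 and 84.4 CPM with etoposide + rapamycin. The values in SK-MEL-28 were 107, 95.2 and 100.0 CPM with etoposide and 96.1, 96.4 and 87.9 CPM with etoposide + rapamycin. The groups overlapped in both. The log2 fold change was -0.09 (95% interval -0.23 to 0.04, adjusted p = 0.291) in A375 and -0.11 (95% interval -0.24 to 0.02, adjusted p = 0.226) in SK-MEL-28.

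The ratio of TOP2A to TOP2B counts within a library does not depend on the scaling between libraries. On the log2 scale it ran from -1.22 to -1.14 in A375 with etoposide and from -0.69 to -0.48 with etoposide + rapamycin. In SK-MEL-28 it ran from -0.70 to -0.59 with etoposide and from -0.93 to -0.75 with etoposide + rapamycin. None of these pairs of ranges overlapped. The mean ratio moved by 0.58 in A375 (from -1.19 ± 0.0404 to -0.60 ± 0.112, SD, n = 3) and by -0.21 in SK-MEL-28 (from -0.65 ± 0.0554 to -0.86 ± 0.0979, SD, n = 3). Each had p = 0.1 in a two-sided exact permutation test, the smallest that 3 against 3 allows.

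**Figure D3:**
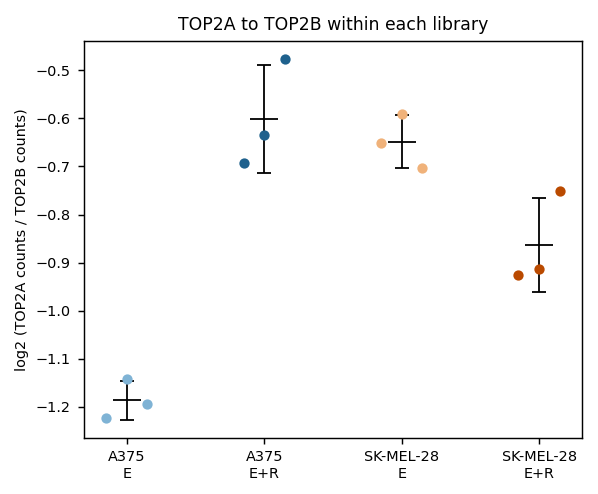
The vertical axis is the log2 ratio of TOP2A to TOP2B counts within each library, with 3 points per group and black bars for the mean ± SD. The 3 points of A375 with etoposide lie lowest, at -1.22 to -1.14, and the other groups lie between -0.93 and -0.48.

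Since TOP2A is known to follow the cell cycle, its levels are given beside lists of 25 markers of G2 and mitosis and 18 markers of S phase. The summed level of the G2 and mitosis markers was 348 to 365 CPM in A375 with etoposide and 508 to 529 CPM with etoposide + rapamycin. In SK-MEL-28 it was 423 to 453 CPM with etoposide and 391 to 443 CPM with etoposide + rapamycin. The sums thus moved up with TOP2A in A375 and overlapped between the groups in SK-MEL-28. The S phase sums rose in both, from between 788 and 833 CPM to between 1106 and 1147 CPM in A375, and from between 783 and 791 CPM to between 928 and 1020 CPM in SK-MEL-28. The part of either in the change of TOP2A was not tested.

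In A375, 16 of the 25 G2 and mitosis markers were called, beside 28.1% of all genes, all of them higher, with a median log2 fold change of 0.45. MKI67, which coats mitotic chromosomes, rose by 1.08 (SE 0.0632, adjusted p = 3.48e-07), AURKB, a mitotic kinase, by 0.92 (SE 0.134, adjusted p = 0.000323), and CENPF, a kinetochore protein, by 0.76 (SE 0.0731, adjusted p = 1.43e-05). TPX2, a spindle assembly factor, rose by 0.40 (adjusted p = 0.00321). The change of TOP2A lay above 15 of the 25 and below 10. In SK-MEL-28, 5 of the 25 were called, beside 19.0% of all genes, 1 higher and 4 lower, with a median of -0.05. There MKI67 had 0.01 (adjusted p = 0.917), CENPF 0.10 (adjusted p = 0.553) and TPX2 0.07 (adjusted p = 0.618), and TOP2A lay below 21 of the 25. The 4 called lower were BUB1 (-0.48, adjusted p = 0.0185), KIF20A (-0.44, adjusted p = 0.0233), CCNB1 (-0.42, adjusted p = 0.0113) and AURKA (-0.37, adjusted p = 0.019). The 1 called higher was KIF11 (0.29, adjusted p = 0.0264). For the difference, 10 of the 25 were called, beside 5.62% of all genes, all of them lower, with a median of -0.55, and TOP2A lay below 21 of the 25.

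Of the 18 S phase markers, 16 were called higher in A375 and 11 higher in SK-MEL-28, with medians of 0.61 and 0.31, and 2 were called for the difference. Over all genes, 14.3% were called higher in A375 and 8.83% higher in SK-MEL-28, and 5.62% were called for the difference. MCM7, a subunit of the replicative helicase, rose by 0.92 (adjusted p = 9.24e-08) in A375 and by 0.67 (adjusted p = 1.79e-05) in SK-MEL-28. CDT1, which loads that helicase, rose by 0.97 (adjusted p = 3.59e-05) and by 0.82 (adjusted p = 7.03e-05). PCNA, the sliding clamp, had -0.10 (adjusted p = 0.225) and 0.06 (adjusted p = 0.492). TOP2A lay below all 18 of them in SK-MEL-28, where its log2 fold change was -0.32.

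**Figure D4:**
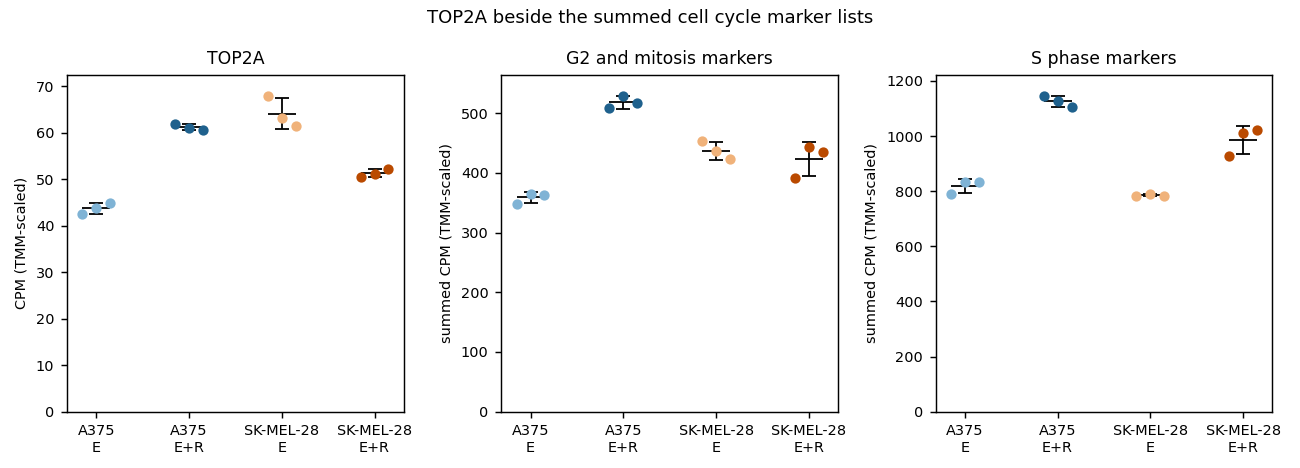
TOP2A in CPM (left) beside the summed CPM of 25 G2 and mitosis markers (middle) and 18 S phase markers (right), with 3 points per group for the libraries and black bars for the mean ± SD. The G2 and mitosis sums rise in A375, to 508 to 529 CPM, and overlap in SK-MEL-28, while the S phase sums rise in both.

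The type IA enzymes act on single-stranded crossings. TOP3A, which works with BLM and the RMI proteins to take apart joined chromosomes, measured 57.5, 50.9 and 53.1 CPM in A375 with etoposide and 62.3, 56.8 and 63.8 CPM with etoposide + rapamycin. In SK-MEL-28 it measured 57.6, 63.0 and 56.3 CPM with etoposide and 58.7, 48.3 and 48.8 CPM with etoposide + rapamycin. The groups overlapped in both cell lines. Its log2 fold change was 0.18 (SE 0.0631, adjusted p = 0.0466) in A375 and -0.18 (SE 0.0771, adjusted p = 0.117) in SK-MEL-28. The A375 call was lost in 9 of 15 alternatives. Among these, it was lost without the first or the third etoposide + rapamycin library (adjusted p = 0.136 and 0.174). It was also lost without the second or the third etoposide library (adjusted p = 0.156 and 0.126), and with library totals as the scaling (0.14, adjusted p = 0.13). Without the first etoposide + rapamycin library of SK-MEL-28, which held the highest value of that group, the log2 fold change there was -0.28 (adjusted p = 0.0161). The difference between the cell lines was -0.36 (SE 0.109, adjusted p = 0.0649), but -0.38 with adjusted p = 0.0196 in DESeq2, -0.46 with adjusted p = 0.013 without that same library, and -0.42 with adjusted p = 0.0336 without the first etoposide library of A375.

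TOP3B, which also acts on RNA together with TDRD3 and FMR1, measured 21.4, 21.3 and 21.1 CPM in A375 with etoposide and 21.6, 23.9 and 20.7 CPM with etoposide + rapamycin. The SK-MEL-28 libraries gave 19.8, 19.2 and 21.4 CPM with etoposide and 23.8, 24.5 and 25.3 CPM with etoposide + rapamycin. Only in the latter did the groups not overlap. The log2 fold change was 0.06 (SE 0.0846, adjusted p = 0.656) in A375 and 0.28 (SE 0.0809, adjusted p = 0.0274) in SK-MEL-28, and the difference was 0.23 (SE 0.108, adjusted p = 0.234). The SK-MEL-28 call was lost without the second or the third etoposide + rapamycin library (adjusted p = 0.0625 and 0.0928) and without the first or second etoposide library (adjusted p = 0.0743 and 0.0933). In the GENCODE annotation, 6024 exon bases of TOP3B are shared with the antisense RNA PPM1F-AS1, and without a stated strand of counting their reads cannot be told apart.

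Among the repair enzymes, TDP2, which frees type II topoisomerases such as those held by etoposide, fell in A375. There it measured 24.5, 23.4 and 22.4 CPM with etoposide and 17.9, 18.9 and 19.6 CPM with etoposide + rapamycin. In SK-MEL-28 the levels were 23.7, 20.9 and 22.3 CPM with etoposide and 22.05, 23.8 and 21.1 CPM with etoposide + rapamycin. The groups did not overlap in A375 and overlapped in SK-MEL-28. The log2 fold change was -0.31 (SE 0.0832, adjusted p = 0.0141) in A375, and -0.28 with adjusted p = 0.0597 without the first etoposide + rapamycin library. In SK-MEL-28 it was 0.00 (95% interval -0.19 to 0.18, adjusted p = 0.989). The difference of 0.32 (SE 0.111, adjusted p = 0.107) did not pass the test, so the responses of TDP2 in the cell lines are not shown to differ. After the mean of each cell line was subtracted, the log2 CPM of TDP2 and TOP2A had a Pearson correlation of -0.715 over the 12 libraries, which share their treatments. On the same scale TDP2 had -0.723 with TOP1MT and 0.638 with TOP1, so the value is not particular to TOP2A.

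TDP1, which frees TOP1 from the 3′ end, had the fewest counts of the 8 genes, 187 to 295 per library. It measured 6.36, 7.66 and 7.62 CPM in A375 with etoposide and 7.28, 8.95 and 9.90 CPM with etoposide + rapamycin. The values in SK-MEL-28 were 7.91, 8.04 and 7.05 CPM with etoposide and 6.84, 8.25 and 6.08 CPM with etoposide + rapamycin. The groups overlapped in both. The log2 fold change was 0.28 (95% interval -0.03 to 0.58, adjusted p = 0.167) in A375 and -0.12 (95% interval -0.42 to 0.17, adjusted p = 0.59) in SK-MEL-28. The coefficient of variation within groups was 7.03% to 15.6% for TDP1 and 0.917% to 6.30% for TOP1.

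With etoposide alone, SK-MEL-28 was also compared with A375, where TOP1 and TOP2A were called, both higher in SK-MEL-28. Over all 19025 genes tested, 31.7% were called, 15.2% higher and 16.5% lower, the groups did not overlap for 44.6%, and 13.0% were called and over 1.5-fold. The members' groups did not overlap for 2 of the 8. In edgeR 0 of the 8 were called and over 1.5-fold, 2 had an unadjusted p under 0.05, and DESeq2, which called 25% of its genes, called 2, with 0 over 1.5-fold. TOP2A was 1.47-fold higher (64.2 ± 3.31 against 43.8 ± 1.16 CPM, SD, n = 3, log2 fold change 0.55, SE 0.0620, adjusted p = 1.79e-05). The summed G2 and mitosis markers were also higher there, 423 to 453 CPM against 348 to 365 CPM, with 13 of the 25 called, all higher, and a median log2 fold change of 0.31. Their part in the difference of TOP2A was not tested. TOP1 was 1.12-fold higher (199 ± 12.6 against 178 ± 1.71 CPM, SD, n = 3, log2 fold change 0.16, SE 0.0537, adjusted p = 0.0353). That call was lost without any one of the A375 libraries (adjusted p = 0.0644, 0.102 and 0.0799) and without the first or the third SK-MEL-28 library (adjusted p = 0.121 and 0.0727). For the other 6 genes the log2 fold changes lay between -0.16 (TOP1MT) and 0.13 (TOP3A), and were not called. Without the second SK-MEL-28 library, TOP1MT was called lower (-0.26, adjusted p = 0.0451), and without the third its value was -0.09 (adjusted p = 0.563). With etoposide + rapamycin, TOP2A stood the other way, at 51.4 ± 0.833 CPM in SK-MEL-28 and 61.2 ± 0.605 CPM in A375.

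The partners of these enzymes and the genes that act on adducts after them made up 34 further genes in 4 lists. In A375, 11 of the 34 were called, 9 higher and 2 lower, which is 32.4% beside the 28.1% of all genes, with a median log2 fold change of 0.07. In SK-MEL-28, 4 of the 34 were called, all higher, which is 11.8% beside 19.0% of all genes, with a median of 0.03. For the difference 0 of the 34 were called in edgeR and 0 in DESeq2, and 7 had an unadjusted p under 0.05.

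Of the 5 TOP3 partners, 2 were called in A375, beside 28.1% of all genes. RMI2, which binds TOP3A with BLM, rose by 0.90 (SE 0.187, adjusted p = 0.00345), the only gene of the 34 called with more than 1.5-fold, and the helicase BLM rose by 0.51 (SE 0.175, adjusted p = 0.0444). In SK-MEL-28, 0 of the 5 were called, and RMI2 and BLM had 0.36 (adjusted p = 0.0823) and 0.43 (adjusted p = 0.102). FMR1 and TDRD3, the partners of TOP3B, were called in neither cell line.

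Of the 15 genes for proteolysis of the adduct, nucleases and SUMO or ubiquitin, 3 were called in A375 and 2 in SK-MEL-28, beside 28.1% and 19.0% of all genes. MRE11, a nuclease that trims blocked ends, rose by 0.31 (adjusted p = 0.019) in A375 and by 0.52 (adjusted p = 0.00258) in SK-MEL-28. Its complex partner NBN had -0.03 (adjusted p = 0.78) and 0.04 (adjusted p = 0.731). PIAS4, a SUMO ligase, rose by 0.33 (adjusted p = 0.0172) and DDI2, a protease, fell by 0.26 (adjusted p = 0.0065) in A375. VCP, which extracts proteins from chromatin and had the highest counts of the list, had 0.05 (adjusted p = 0.442) and -0.06 (adjusted p = 0.329).

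Of the 6 single-strand break repair genes, 3 were called in A375, all higher, and 1 in SK-MEL-28, beside 28.1% and 19.0% of all genes. XRCC1, the scaffold of this repair, rose by 0.34 (adjusted p = 0.00503) and LIG3, its ligase, by 0.27 (adjusted p = 0.0178) in A375, while PARP1, the break sensor, had -0.07 (adjusted p = 0.292).

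Of the 8 end joining genes, 3 were called in A375 and 1 in SK-MEL-28, beside 28.1% and 19.0% of all genes. PAXX, which steadies the end joining complex, rose by 0.46 (adjusted p = 0.0026) in A375 and by 0.49 (adjusted p = 0.00296) in SK-MEL-28. In A375, PRKDC, the DNA-dependent kinase, rose by 0.23 (adjusted p = 0.0266) and LIG4, the sealing ligase, fell by 0.35 (adjusted p = 0.00301). XRCC5 and XRCC6, which together form the Ku ring, lay between -0.08 and -0.01 in both cell lines and were not called.

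**Figure D5:**
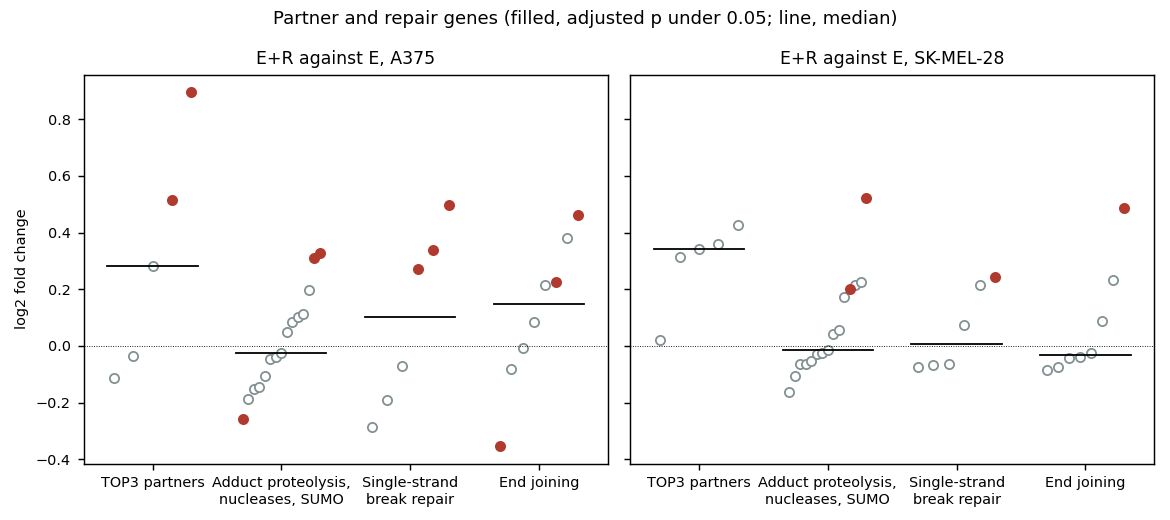
Each point is the log2 fold change of 1 of 34 partner and repair genes, etoposide + rapamycin against etoposide, in A375 (left) and SK-MEL-28 (right), filled where the adjusted p was under 0.05, with a line at the median of each list. In A375, 11 points are filled, RMI2 the highest at 0.90, and in SK-MEL-28 4 are filled.

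Between the cell lines with etoposide alone, 10 of the 34 were called, 4 higher and 6 lower in SK-MEL-28, which is 29.4% beside 31.7% of all genes. PARP1 was lower (log2 fold change -0.32, adjusted p = 0.000242). PRKDC was higher by 0.30 (adjusted p = 0.00976), XRCC5 by 0.18 (adjusted p = 0.0334) and XRCC6 by 0.16 (adjusted p = 0.0273).

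For the 6 members called in a rapamycin comparison, the genes most like them over the 12 libraries were found by Pearson correlation of log2 CPM after the mean of each cell line was subtracted, among 12712 genes. The libraries share their treatments, so that these values are a description with no p. TOP1 was most like SBNO1 (0.990), HSP90B1 (0.986) and AIFM1 (0.984), and TOP1MT most like AXIN1 (0.985), GATD1 (0.982) and PELP1 (0.967). TOP2A was most like CNKSR3 (0.950), LASP1 (0.938) and TUBB3 (0.935). For TOP3A the nearest were RUBCN (0.954), ADGRE5 (0.933) and KLC1 (0.926), and for TOP3B PPP4R4 (0.935), AC098614.1 (0.923) and PART1 (0.922). TDP2 was most like CLEC2B (0.938), RNF125 (0.928) and HCG11 (0.927).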

How the data were processed

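PolyA-selected RNA libraries of A375 and SK-MEL-28 cells were sequenced, 3 in each of the 4 groups. Per the study's methods and the submitters' processing notes, reads were aligned to GRCh38 (hg38) with HISAT2 2.2.0 and expression was estimated with StringTie 2.1.4 on Ensembl release 90. The authors deposited these values as raw counts per gene and library, without normalization. How coverage became counts, and the strand used, are not given in the sources used here. The 5 rows without a gene name (0.000991% to 0.00529% of each library) were left out.

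Tests used edgeR 4.0.16 in R 4.3.3 (filterByExpr with a minimum count of 10, TMM, glmQLFit, glmQLFTest) and p-values were adjusted by Benjamini-Hochberg across every gene tested, after tests on simulated data. CPM are TMM-scaled, with a prior count of 2 on the log2 scale for correlations. Each cell line was fitted alone, the difference in all 12 libraries, and the cell lines in the 6 etoposide libraries. Standard errors were taken as log2 fold change over the root of F. The precision at 28190672 to 32499659 counts is given by the spread between replicates. Replicates differed beyond sampling noise (chi-square 5.15 to 10.5 per gene over 12 pairs). Alternatives were DESeq2 1.42.0, its size factors (RLE), library totals, 2 other count filters, one fit of all libraries, a replicate block, halved counts, a 1.5-fold limit and each library left out. Genes were named from the members, the 3 genes of each other list with the highest counts, and the 3 most like each called member. Up to 5 genes per list and comparison called with more than 1.5-fold could also be named. Some cell cycle and cell type markers that met these rules were not named, and counts over their lists include them. Further genes of the repair lists (BLM, MRE11, PIAS4, DDI2, LIG3, LIG4 and PAXX) were chosen after their values were seen. The 5 G2 and mitosis markers called with rapamycin in SK-MEL-28 were also named after their values were seen. The values of 2 genes of the repair lists are not reported here, and counts over those lists include them. The members and lists were chosen with earlier results of these data known. Positions came from GENCODE release 44 and promoters from RefSeq (GRCh38.p14).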

Additional observations from a re-analysis of the deposited data

Results flagged for a closer look

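TOP2A was singled out because the interaction term passed the test: rapamycin moved it apart in A375 and SK-MEL-28. The difference, SK-MEL-28 minus A375, was -0.80 on the log2 scale (SE 0.0719, edgeR adjusted p = 7.89e-06), with TOP2A higher in 3 of 3 libraries with rapamycin in A375 and lower in 3 of 3 in SK-MEL-28. Over 20 alternatives the difference ran from -0.83 to -0.76 and the adjusted p from 1.87e-21 to 0.000602, and it stayed past the threshold in all 20. That TOP2A differs between the cell lines was known from earlier results of these data when the genes were chosen. The summed G2 and mitosis markers moved with it in A375, from between 348 and 365 CPM to between 508 and 529 CPM. In SK-MEL-28 these sums overlapped, at 423 to 453 CPM with etoposide and 391 to 443 CPM with etoposide + rapamycin. For the difference, 10 of the 25 markers were called, all lower, beside 5.62% of all genes called and 2.97% called lower, and 4 of the 25 lay below TOP2A. The part of these markers in the difference of TOP2A was not tested.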

How the results depend on the processing

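Of 654 recomputed values, 576 were scored as the same, by a rule that differed between kinds of value. A single member had to keep its direction and its side of the threshold. A count of calls had only to stay within 1.5-fold of the main count, so it could change and still be scored as the same. The ratio of TOP2A to TOP2B had to move by less than the pooled SD of the replicates. Among the 520 values for single members 461 were the same, 30 lost a call, 6 gained one and 23 changed sign. With a 1.5-fold limit 0 members were called in A375 (5.89% of all genes), 0 in SK-MEL-28 (4.99%) and 0 between the cell lines (13.0%). For the difference 2 members were called by DESeq2 (11.6% of all genes) and 2 with a filter of 10 counts in every library (8.63%). Between the cell lines 1 was called when genes needed just 1 count in any library (12.2% of all genes). With each library left out in turn, members called ran from 3 to 5 in A375, from 3 to 5 in SK-MEL-28, from 1 to 2 for the difference and from 1 to 3 between the cell lines. Over all genes, the share called in these fits ran from 20.1% to 27.1% in A375 and from 12.5% to 15.9% in SK-MEL-28. It ran from 2.85% to 6.31% for the difference and from 24.9% to 28.1% between the cell lines. TOP3 partners called in A375 numbered 1 with DESeq2 and 1 with library totals, single-strand break repair genes 5 with library totals in A375 and 0 with them in SK-MEL-28, and S phase markers for the difference 5 with DESeq2. Over all genes, DESeq2 called 30% in A375 and 11.6% for the difference, and library totals called 29.6% in A375 and 19.7% in SK-MEL-28. In the case of TDP2 in SK-MEL-28 the change was 0.001 under the filter at 1 count and 7e-04 in one fit of all libraries. The TOP1 difference was -0.0136 with DESeq2, -0.009 with RLE, -0.0039 under the filter at 1 count and -0.0143 with 10 counts in every library. Leaving out libraries gave -8e-04 to 0.10 for TOP3B in A375, -0.0483 to 0.0441 for TDP2 in SK-MEL-28, -0.0386 to 0.0564 and -0.0729 to 0.0477 for the differences of TOP1 and TOP2B, and -0.028 to 0.058 for TOP2B between the cell lines. The cause of each was not tested. Library totals moved the share of higher calls among all called genes from 50.8% to 39.7% in A375 and from 46.6% to 36.0% in SK-MEL-28.

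Same-numbered libraries did not deviate together (9 correlations from -0.03 to 0.02, with the own number closest in 2 of 9 cases), so no pairing by number was seen. These values cannot show whether same-numbered cultures were handled together. With the replicate block the TOP3A call in A375 was lost (0.18, adjusted p = 0.0531), no other call of a member changed, and genes called for the difference went from 1130 to 620.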

Other observations

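The summed level of the 8 genes was 453 to 463 CPM in A375 with etoposide and 445 to 464 CPM with etoposide + rapamycin, and 489.9 to 524 CPM and 435 to 453 CPM in the same groups of SK-MEL-28. Per kilobase of the MANE Select transcript, TOP1 made up 74.2% ± 0.662 (SD, n = 3) of TOP1 and TOP1MT together in A375 with etoposide and 60.2% ± 2.06 with etoposide + rapamycin. In SK-MEL-28 the shares were 78.3% ± 2.73 and 68.2% ± 0.478. The ranges did not overlap between treatments in either cell line.

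Of 8 melanocyte markers, 7 were tested and 3 were called in A375 with rapamycin, all lower, among them MITF (log2 fold change -0.51, adjusted p = 0.00248), the lineage transcription factor. Over all genes, 28.1% were called there, 13.8% lower. Of the 3, DCT had only 6 to 24 counts per library in A375. SOX10, with the highest counts of the list, was not called (0.14, adjusted p = 0.572, in A375 and -0.23, adjusted p = 0.543, in SK-MEL-28). In SK-MEL-28 only MITF was called, at -0.50 (adjusted p = 0.0032), beside 19.0% of all genes called, 10.1% lower. The 6 markers of epithelial, leukocyte and endothelial cells summed to 14.2 to 16.7 CPM in A375 with etoposide and 11.7 to 14.4 CPM with etoposide + rapamycin, which overlapped. In the same groups of SK-MEL-28 they summed to 9.54 to 10.6 CPM and 6.49 to 7.93 CPM, which did not overlap. Most of each sum came from KRT14, a keratin of basal epithelium, and PECAM1, an endothelial adhesion molecule. The group means of KRT5, EPCAM, PTPRC and CD3E were at most 0.459 CPM, so the sums say little about them. PECAM1 was called lower with rapamycin in SK-MEL-28 (log2 fold change -0.70, adjusted p = 0.0488), and in A375 it had -0.38 (adjusted p = 0.11). With etoposide alone, KRT14 and PECAM1 were called lower in SK-MEL-28 than in A375 (-0.51, adjusted p = 0.00458, and -1.22, adjusted p = 0.000251).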
